A study of Mus musculus with 12 samples.

Results

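A set of 10 genes of elastic fibres and their crosslinking enzymes were followed in 3T3 mouse fibroblasts exposed to extracellular vesicles (EVs) of a human breast cancer line. They were chosen by gene symbol, with earlier results of these data known, so counts beside shares of all genes are descriptive. These genes are elastin (Eln), fibrillins Fbn1 and Fbn2, fibulins Fbln2 and Fbln5, microfibril-associated proteins Mfap2, Mfap4 and Mfap5, and lysyl oxidases Lox and Loxl1. All were present among the 32544 gene symbols of the deposited table, and all 10 were among the 14279 genes that passed the filter on low counts. Bulk RNA sequencing was done in 4 groups of 3 libraries. The 3T3 cells were untreated, or had received for 24 h the EVs of MDA-MB-468 cells that were control cells (shCon), CRIPTO knockdown cells (shCr) or CRIPTO overexpressing cells (CrOE). MDA-MB-468 is a human breast cancer cell line, and CRIPTO is a cell-surface co-receptor of Nodal and related ligands. The table heads the CrOE columns with the protein's name only, and they were assigned to that group because the other columns are accounted for. All libraries came from the same recipient line. The labels do not say whether replicates were separate cultures, so p-values measure the spread between these libraries, which may be technical.

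An elastic fibre is made of cross-linked elastin laid down on a scaffold of fibrillin microfibrils. Fibulins bring elastin monomers, microfibrils and enzymes together, and lysyl oxidases, which need copper, oxidise lysines so that elastin and collagen chains become covalently linked. Fibroblasts of skin, lung and vessel wall make these proteins, and the stiffness of tumour stroma is known to depend in part on lysyl oxidase.

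Libraries held 25960054 to 37774020 estimated counts. Levels are given as CPM, the count relative to the library total after TMM scaling. TMM assumes that most genes do not change, so the median fold change over all genes is largely set by it. Across genes, which are not independent, Pearson's r of log2 CPM between replicates was 0.986 to 0.994. The CrOE EV libraries correlated with those of the other groups at only 0.900 to 0.921, against 0.974 to 0.991 among the other 3 groups. Of 10 fibroblast markers, 10 were above 3 counts in untreated, shCon EV and shCr EV libraries and 9 in CrOE EV libraries, where Lum was at or below that floor. Their summed level was 15783.2 to 16781.3 CPM in untreated libraries, 17851 to 18048.9 after shCon EVs, 12193.1 to 13995.5 with shCr EVs and 4953.6 to 5140.4 after CrOE EVs. Mitochondrially encoded genes took 0.495% to 1.64% of the counts in untreated libraries, 1.35% to 1.64% with shCon EVs, 0.622% to 1.70% with shCr EVs and 0.693% to 1.44% with CrOE EVs, so that the ranges of all groups overlapped.

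Differences are log2 fold changes from edgeR's quasi-likelihood test, and a difference counts as a call at a Benjamini-Hochberg adjusted p under 0.05 over all 14279 genes. Fewer expressing cells and less RNA per cell cannot be told apart in bulk RNA.

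**Figure D1:**
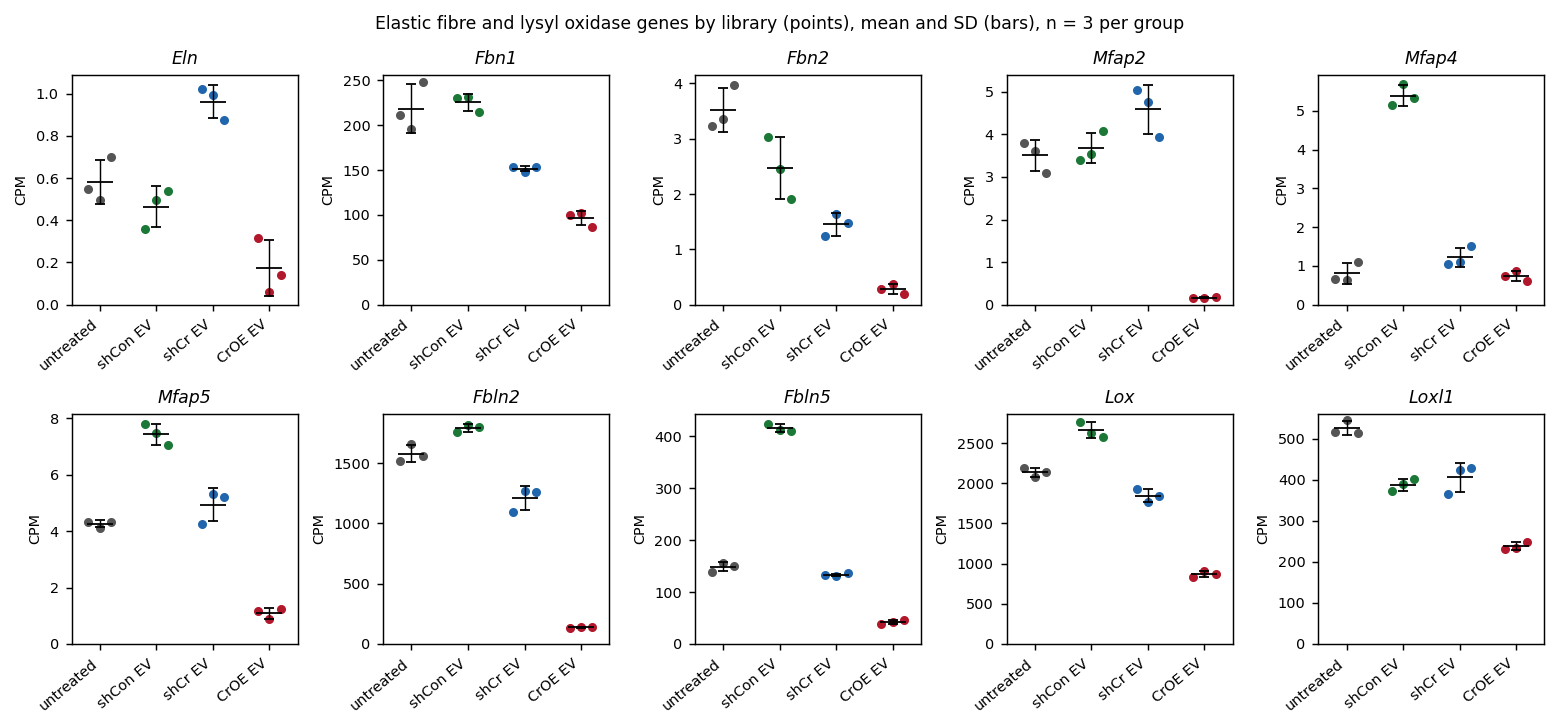
Level of each of the 10 genes (CPM, linear axes that start at 0) in each library of the 4 groups, with points for libraries, a horizontal mark for the mean and bars for the SD. Mfap4 and Fbln5 stand high only in the 3 shCon EV libraries among the 12, and 9 of the 10 genes are lowest in the CrOE EV libraries, Mfap4 being the exception because its untreated and CrOE EV values overlap.

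The order of the genes was set by comparing levels per kilobase of exon. In untreated cells Lox was highest at 446.9 ± 11.2 CPM per kb (SD, n = 3), followed by Fbln2 at 329.6 ± 14.9 and Loxl1 at 159 ± 5.04. Fbln5 (24.5 ± 1.45) and Fbn1 (18.2 ± 2.27) came next, then Mfap2 (3.08 ± 0.327) and Mfap5 (2.83 ± 0.0824), whose libraries overlapped. At the bottom of the order stood Mfap4 (0.448 ± 0.145), Fbn2 (0.319 ± 0.0363) and Eln (0.151 ± 0.0274). These fibroblasts carried far more transcript for crosslinking enzymes and fibulins than for elastin itself. After CrOE EVs Loxl1 (72.0 ± 2.98 CPM per kb) ranked above Fbln2 (29.0 ± 1.07), and Fbn2 (0.0260 ± 0.00823) and Eln (0.0446 ± 0.0343), whose libraries overlapped, were lowest.

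Elastin, the core of the fibre, was rare in every group. Eln had 13 to 19 counts in untreated libraries, 10 to 15 after shCon EVs, 29 to 33 with shCr EVs and 2 to 10 after CrOE EVs. Its levels were 0.549, 0.4955 and 0.699 CPM in untreated replicates 1 to 3, 0.358, 0.498 and 0.540 after shCon EVs, 1.02, 0.993 and 0.875 after shCr EVs, and 0.317, 0.0582 and 0.140 after CrOE EVs. The shCr EV libraries were above, and the CrOE EV libraries below, all libraries of the other groups. The fall after CrOE EVs was a call against untreated cells (log2 fold change -1.76, SE 0.42, adjusted p = 0.002). Its size rested on few reads, and without CrOE EV replicate 1 it was -2.49. The higher values after shCr EVs were no call against untreated cells (0.72, 95% interval 0.0081 to 1.43, adjusted p = 0.107) or against shCon EVs (1.04, 0.31 to 1.76, adjusted p = 0.0798). In GENCODE M21 a gene on the opposite strand, Gm30003, overlaps 3.94% of the exonic bases of Eln. Of the 31-base stretches of Eln transcripts 3.93% also occur in transcripts of other genes. The part of either in these low counts was not tested.

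The fibrillins, which polymerise into the microfibril, parted in how much they fell. Fbn1 was at 195 to 248 CPM in untreated libraries, 215 to 232 after shCon EVs, 148 to 153 with shCr EVs and 87.0 to 102 after CrOE EVs. Untreated and shCon EV libraries overlapped, and the log2 fold change between them was 0.046 (95% interval -0.13 to 0.23). Fbn1 fell after shCr EVs (-0.53, SE 0.083, adjusted p = 0.000284) and after CrOE EVs (-1.18, SE 0.085, adjusted p = 3.83e-08). An antisense gene, Gm9913, overlaps 20.3% of the exonic bases of Fbn1 in GENCODE M21. It was at no more than 37 counts in any library, and its part in the counts of Fbn1 was not tested.

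Fbn2, the fibrillin that predominates in embryonic tissue, was at 3.22, 3.35 and 3.97 CPM in untreated replicates 1 to 3 and at 3.04, 2.46 and 1.91 after shCon EVs. It was at 1.23, 1.63 and 1.48 CPM with shCr EVs and at 0.285, 0.378 and 0.197 after CrOE EVs. None of the ranges of the 4 groups overlapped, in the order untreated, shCon EV, shCr EV and CrOE EV from high to low. The value after shCon EVs was no call against untreated cells (-0.51, adjusted p = 0.0562) and became a call without shCon EV replicate 1 (adjusted p = 0.0288). Fbn2 fell after shCr EVs (-1.27, SE 0.20, adjusted p = 0.00031) and was 12.1-fold lower after CrOE EVs (-3.60, SE 0.25, adjusted p = 3.34e-08).

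The microfibril-associated proteins bind microfibrils or elastin. Mfap2 was at 3.81, 3.62 and 3.09 CPM in untreated replicates 1 to 3, 3.399, 3.55 and 4.07 after shCon EVs and 5.04, 4.77 and 3.95 after shCr EVs. After CrOE EVs it was at 0.159, 0.1455 and 0.1685 CPM, which were 5 or 6 counts per library. Mfap2 was thus 21.7-fold lower than in untreated cells (log2 fold change -4.44, 95% interval -4.89 to -3.99, adjusted p = 5.93e-10), the largest fold among the 10 genes in that comparison. Its rise after shCr EVs was small (0.38, SE 0.13, adjusted p = 0.0389). That call was lost with DESeq2 (adjusted p = 0.0884), in a model of these 2 groups alone (0.101), with no low-count filter (0.0814), and when any 1 of 5 of the 6 libraries was left out (0.0522 to 0.16).

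Mfap4, an extracellular glycoprotein that takes part in elastic fibre assembly, stood high after shCon EVs alone. It was at 0.659, 0.648 and 1.10 CPM in untreated replicates 1 to 3 and at 5.15, 5.68 and 5.33 after shCon EVs. After shCr EVs it was at 1.06, 1.09 and 1.51 CPM and after CrOE EVs at 0.7295, 0.873 and 0.618. Every shCon EV library was thus above every library of the other groups, and the CrOE EV libraries overlapped the untreated ones. Mfap4 was 6.67-fold higher after shCon EVs than in untreated cells (log2 fold change 2.74, SE 0.21, adjusted p = 7.44e-07), the 31st largest rise among 14279 genes. Against shCon EVs it was lower with shCr EVs (-2.13, 95% interval -2.55 to -1.70, adjusted p = 3.37e-05), the 22nd largest fall of that comparison, and with CrOE EVs (-2.86, adjusted p = 5.2e-08). Against untreated cells it was no call after CrOE EVs (-0.12, 95% interval -0.67 to 0.43) or after shCr EVs (0.61, adjusted p = 0.0617), although the second became a call without untreated replicate 3 (0.0148) or shCr EV replicate 1 (0.041). Exons of Mapk7 on the opposite strand overlap 4.96% of the exonic bases of Mfap4, and whether counting used the strand is not given in the sources used here. Mapk7 was at 75.2 ± 8.19 CPM in untreated cells, 84.5 ± 2.22 after shCon EVs, 80.5 ± 13.9 with shCr EVs and 89.4 ± 3.20 after CrOE EVs (SD, n = 3), and its part in the counts of Mfap4 was not tested.

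Mfap5 was at 4.12 to 4.34 CPM in untreated libraries, 7.06 to 7.80 after shCon EVs, 4.26 to 5.32 with shCr EVs and 0.873 to 1.23 after CrOE EVs. It rose after shCon EVs (log2 fold change 0.80, SE 0.12, adjusted p = 0.000211) and fell after CrOE EVs (-1.96, SE 0.14, adjusted p = 5.25e-08). The shCr EV libraries overlapped the untreated ones (0.22, 95% interval -0.052 to 0.48, adjusted p = 0.195) and lay below all shCon EV libraries (-0.59, adjusted p = 0.00809).

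Promoter sequence is shown for the fibulins, since both are abundant, both fell after CrOE EVs and only Fbln5 rose several-fold after shCon EVs. Each line gives the 250 bases before the annotated start, 5′ to 3′ on the gene's strand, from RefSeq on GRCm38.p6. Capitals mark matches to the GC box, GGGCGG, on either strand.
Fbln5 (chr12:101819120-101819369, minus strand, the upstream start of 2): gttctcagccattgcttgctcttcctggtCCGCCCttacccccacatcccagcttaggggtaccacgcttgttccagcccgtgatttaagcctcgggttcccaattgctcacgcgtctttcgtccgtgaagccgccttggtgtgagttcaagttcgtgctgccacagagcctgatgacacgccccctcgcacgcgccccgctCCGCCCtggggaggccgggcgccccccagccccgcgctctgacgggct
Fbln2 (chr6:91212514-91212763, plus strand): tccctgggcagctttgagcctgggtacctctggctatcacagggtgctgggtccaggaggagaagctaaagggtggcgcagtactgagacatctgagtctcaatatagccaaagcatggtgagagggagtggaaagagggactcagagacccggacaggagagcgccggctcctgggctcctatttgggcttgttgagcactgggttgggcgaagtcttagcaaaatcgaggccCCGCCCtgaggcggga
The Fbln5 window held 2 GC boxes and the Fbln2 window 1, and 32.7% of 32851 promoter windows of this length held at least 1. The letters TATAAA (12.4% of windows), TGANTCA (6.75%) and GGAATG (12.6%), searched on both strands, were not found in either window. GC content was 65.2% for Fbln5 and 58.8% for Fbln2, against a median of 52.4% over all windows. A match describes the letters of these windows only.

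Fbln5, which carries elastin to microfibrils and binds Loxl1, was at 139, 156 and 150.3 CPM in untreated replicates 1 to 3 and at 424, 412 and 410.4 after shCon EVs. It was at 132, 131 and 136 CPM with shCr EVs and at 39.0, 42.9 and 45.6 after CrOE EVs. The 4 ranges did not overlap, and the shCon EV libraries were the highest. Fbln5 was 2.80-fold higher after shCon EVs than in untreated cells (log2 fold change 1.48, SE 0.061, adjusted p = 5.59e-09) and 3.49-fold lower after CrOE EVs (-1.80, SE 0.063, adjusted p = 3.21e-11). After shCr EVs it differed little from untreated cells (-0.16, 95% interval -0.29 to -0.030, adjusted p = 0.0534). That difference was a call with DESeq2 (adjusted p = 0.0242), median-of-ratios size factors (0.0456), a filter of 10 counts in every library (0.0469) or without untreated replicate 1 (0.0203).

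Between the knockdown and the control EVs, Fbln5 had the smallest p-value of all 14279 genes. It was 3.13-fold lower with shCr EVs (log2 fold change -1.64, SE 0.061, adjusted p = 3.65e-08, lower in 3 of 3 libraries). It ranked 1st by adjusted p under each alternative run except without shCr EV replicate 1, where it ranked 2nd, and its log2 fold change stayed between -1.66 and -1.63.

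Fbln2, a fibulin that binds fibrillin and tropoelastin, was at 1514.9, 1655.4 and 1562.3 CPM in untreated replicates 1 to 3 and at 1758.1, 1819.4 and 1802.9 after shCon EVs. It was at 1095.9, 1272.8 and 1260.6 CPM with shCr EVs and at 133, 142 and 141 after CrOE EVs. No ranges overlapped, and the CrOE EV libraries were lowest by a wide margin. After CrOE EVs Fbln2 was 11.4-fold lower than in untreated cells (log2 fold change -3.51, SE 0.069, adjusted p = 2.87e-13). It fell after shCr EVs as well (-0.38, SE 0.062, adjusted p = 0.000354). The rise after shCon EVs was small (0.19, SE 0.062, adjusted p = 0.033) and was no call with no low-count filter (0.056) or when any 1 of 5 of the 6 libraries was left out (0.0604 to 0.145).

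Lox, the most abundant of the 10, was at 2187.8, 2080.5 and 2137.3 CPM in untreated replicates 1 to 3 and at 2768.2, 2632.2 and 2576.9 after shCon EVs. It was at 1926.6, 1762.6 and 1845.3 CPM with shCr EVs and at 831, 911 and 877 after CrOE EVs. None of these ranges overlapped. Lox rose after shCon EVs (log2 fold change 0.32, SE 0.053, adjusted p = 0.000478), fell a little after shCr EVs (-0.21, SE 0.053, adjusted p = 0.00717) and was 2.45-fold lower after CrOE EVs (-1.29, SE 0.054, adjusted p = 1.79e-10). With shCr against shCon EVs it was 1.44-fold lower (-0.53, adjusted p = 7.57e-05).

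Loxl1, the lysyl oxidase most tied to elastin, fell after shCon EVs, where Lox rose. Its levels were 517, 544 and 515 CPM in untreated replicates 1 to 3, 372, 389 and 401 after shCon EVs, 366, 422 and 429 after shCr EVs, and 230.2, 234 and 249 after CrOE EVs. All untreated libraries were above all EV libraries, and the shCon and shCr EV libraries overlapped. Loxl1 fell after shCon EVs (log2 fold change -0.44, SE 0.064, adjusted p = 0.000163), shCr EVs (-0.37, SE 0.064, adjusted p = 0.00053) and CrOE EVs (-1.14, SE 0.065, adjusted p = 3.55e-09). The difference with shCr against shCon EVs was 0.067 (95% interval -0.072 to 0.21, adjusted p = 0.606).

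**Figure D2:**
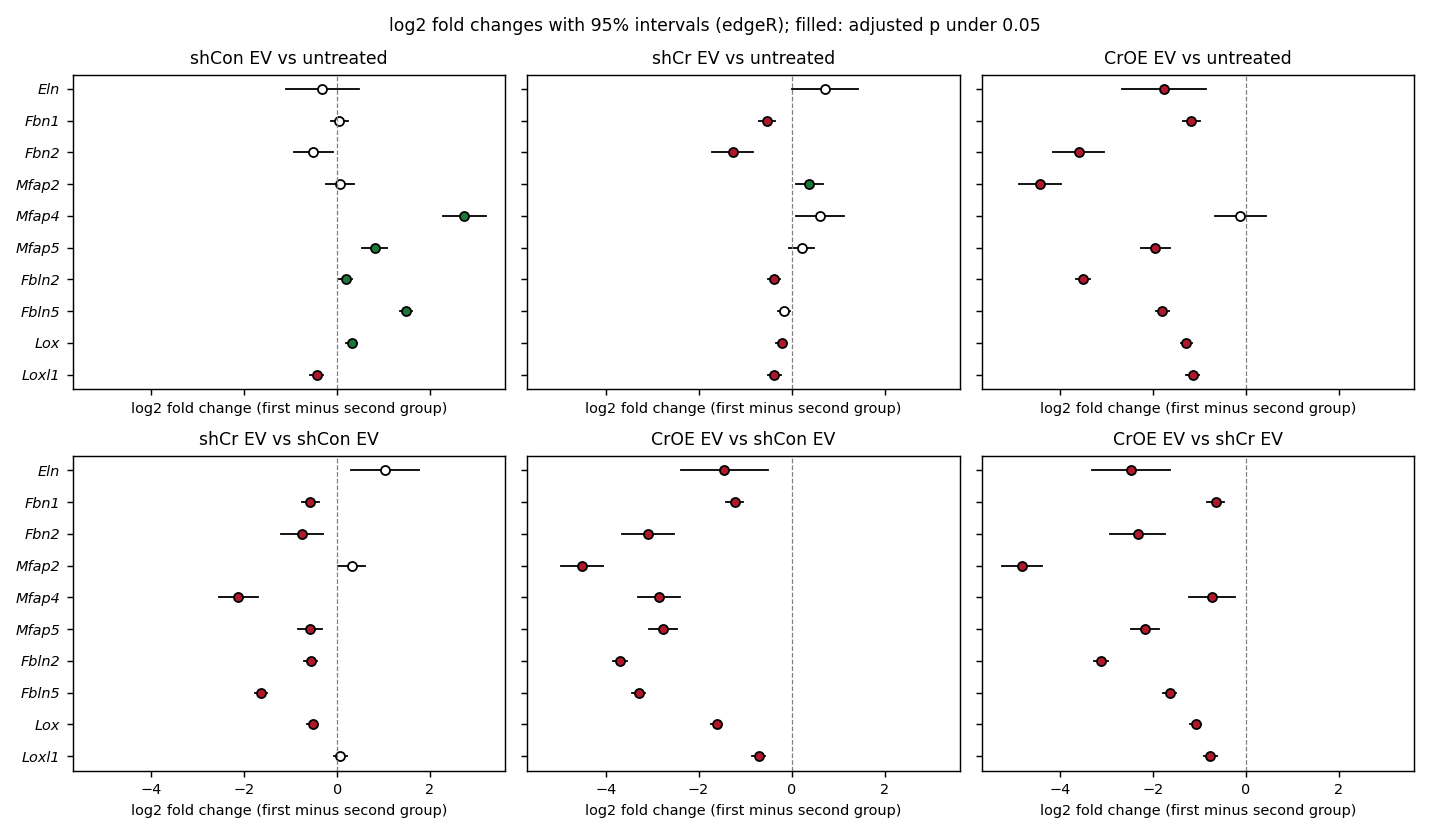
log2 fold changes of the 10 genes in the 6 comparisons of groups, with 95% intervals as lines; filled points are calls (red lower, green higher) and open points are no calls. In both lower panels that involve CrOE EVs all 10 points are filled and below 0, and Mfap4 is the only open point among the 10 in CrOE EVs against untreated cells.

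The comparison of control EVs with untreated cells shows what differed when these EVs were added. No group is labelled as vehicle or as EVs of non-tumour cells. Effects of tumour origin, of EVs of any kind and of handling therefore cannot be told apart. After shCon EVs 6 of the 10 genes were calls, where 38.1% of all genes tested were. Higher were Mfap4, Fbln5, Mfap5, Lox and Fbln2, 5 of 10 against 18.0% of all genes, and lower was Loxl1, 1 of 10 against 20.2%. The median log2 fold change of the 10 was 0.13, beside 0.0069 over all genes. Eln, Fbn1, Fbn2 and Mfap2 were no calls. Levels did not overlap between the groups for 7 of 10 genes, 5 higher and 2 lower, where 54.2% of all genes did not overlap (26.6% higher, 27.7% lower). Of the 10 fibroblast markers, 2 were called higher and 3 lower here, with a median of 0.058.

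After shCr EVs 6 of 10 genes were calls against untreated cells, where 37.3% of all genes were. Fbn1, Fbn2, Fbln2, Lox and Loxl1 were lower, 5 of 10 against 18.8% of all genes. Mfap2 was higher, 1 of 10 against 18.4%. The median was -0.19, beside 0.020 over all genes. Levels did not overlap for 8 of 10 genes, 2 higher and 6 lower, where 41.9% of all genes did not overlap (20.8% higher, 21.1% lower). Of the 10 fibroblast markers, 2 were called higher and 6 lower in this comparison, with a median of -0.38, and their part in the result was not tested. The 3 comparisons of EVs with untreated cells share the untreated libraries.

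After CrOE EVs 9 of 10 genes were calls against untreated cells, where 73.7% of all genes were, so a high number of calls is not particular to these genes. All 9 were lower, however, against 37.0% of all genes called lower, and 0 were higher by edgeR at an adjusted or unadjusted p under 0.05, against 36.7%. DESeq2 also called 9. The median log2 fold change was -1.78, beside 0.0078 over all genes, the second largely set by TMM scaling. With 73.7% of all genes called, how far the assumption of TMM holds here was not tested. Levels did not overlap for 9 of 10 genes, all lower, where 77.7% of all genes did not overlap (38.8% higher, 38.8% lower). Of the 10 fibroblast markers, 10 were called lower in the same comparison, with a median of -1.97, and the part of that shift in the fall of the elastic fibre genes was not tested.

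EVs of donor cells that differed in CRIPTO were then set against each other. No group is labelled as a control for the overexpression construct. In comparisons with CrOE EVs, CRIPTO and the construct therefore cannot be told apart. With shCr against shCon EVs 7 of 10 genes were calls, where 8.73% of all genes were. All 7 were lower, against 3.51% of all genes, and 0 were higher by edgeR, against 5.22%. At an unadjusted p under 0.05, 2 were higher, Eln and Mfap2, and DESeq2 also called 7 of the 10. The 7 were Fbln5, Mfap4, Fbn2, Mfap5, Fbn1, Fbln2 and Lox, and their log2 fold changes ran from -2.13 to -0.53. Levels did not overlap for 8 of 10 genes, those 7 and Eln, which was higher, where 28.0% of all genes did not overlap (15.5% higher, 12.5% lower). Fbn2 (-0.76, adjusted p = 0.04) was no call in a model of these 2 groups alone (0.0988) or when any 1 of 5 of the 6 libraries was left out (0.0588 to 0.172). Of the 10 fibroblast markers, 3 were called higher and 4 lower in this comparison, with a median of 0.033.

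With CrOE against shCon EVs 10 of 10 genes were calls and all were lower, where 72.6% of all genes were calls and 36.1% were lower. Levels did not overlap for any of the 10, where 80.5% of all genes did not overlap (40.7% higher, 39.8% lower). Their log2 fold changes ran from -0.71 for Loxl1 to -4.51 for Mfap2. With CrOE against shCr EVs 10 of 10 were again calls and lower, where 73.9% of all genes were calls and 37.0% were lower. Levels again did not overlap for any of the 10, where 74.0% of all genes did not overlap (37.1% higher, 36.9% lower). Here the range was -0.65 for Fbn1 to -4.82 for Mfap2. The smaller fall of Mfap4 with CrOE against shCr EVs (-0.73, adjusted p = 0.0121) was no call without shCr EV replicate 3 (0.0726) or CrOE EV replicate 3 (0.053). All 10 fibroblast markers were called lower too, their medians being -1.98 in the first and -1.84 in the second of these comparisons, and their part in these falls was not tested. In the F-test among the 4 groups all 10 genes were calls, where 81.3% of all genes were.

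Summed over the 10 genes, the level was 4582.2 to 4644.1 CPM in untreated libraries, 5424.6 to 5572 after shCon EVs, 3686 to 3836.3 with shCr EVs and 1335.4 to 1433.7 after CrOE EVs. Lox and Fbln2 together made up 80.0% to 82.0% of this sum in the untreated, shCon EV and shCr EV libraries and 72.1% to 73.5% in the CrOE EV libraries.

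Ratios of related genes within a library do not depend on the scaling between libraries. The Fbln5 count was 9.17% to 9.62% of the Fbln2 count in untreated libraries, 22.6% to 24.1% after shCon EVs, 10.3% to 12.1% with shCr EVs and 29.4% to 32.4% after CrOE EVs. Fbln5 had risen more than Fbln2 after shCon EVs and had fallen less after CrOE EVs. Loxl1 was 23.6% to 26.2% of Lox in untreated libraries, 13.4% to 15.6% after shCon EVs, 19.0% to 24.0% with shCr EVs and 25.7% to 28.4% after CrOE EVs, so that the shCon EV libraries lay below all others. Fbn2 was 1.52% to 1.72% of Fbn1 in untreated cells and 0.226% to 0.371% after CrOE EVs, with shCon EV (0.890% to 1.32%) and shCr EV libraries (0.807% to 1.10%) in between and overlapping. Mfap5 was 113% to 141% of Mfap2 in untreated libraries, 173% to 230% after shCon EVs, 84.6% to 132% with shCr EVs and 600% to 740% after CrOE EVs, the last on 5 or 6 counts of Mfap2 per library.

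**Figure D3:**
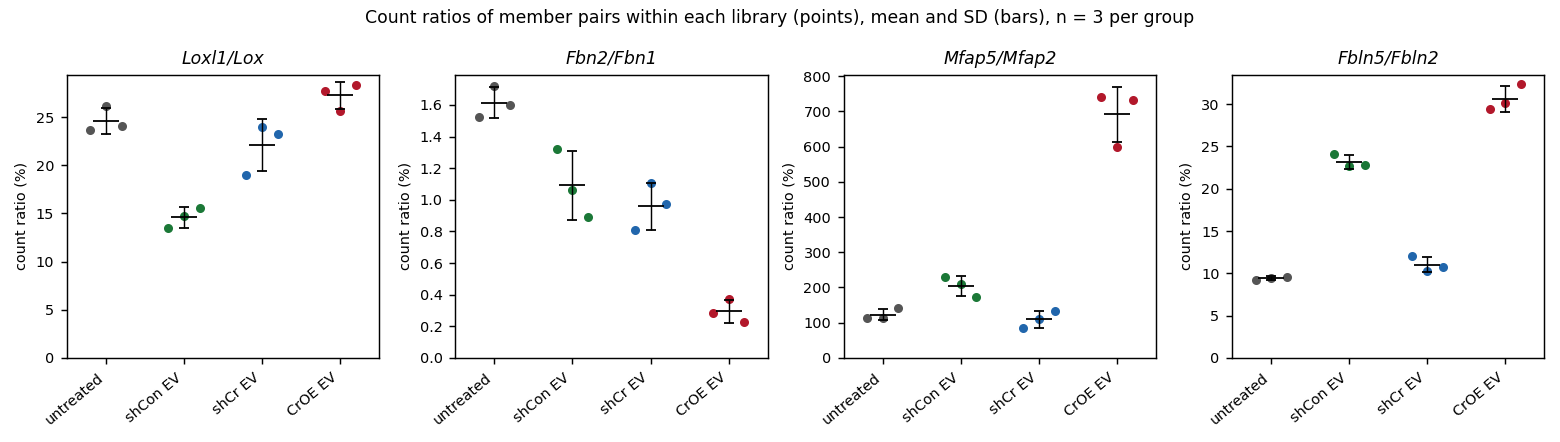
Count of the first gene as a percentage of the count of the second, for 4 pairs of related genes, in each library (points) with the mean and SD (n = 3 per group, axes from 0). Loxl1/Lox is lowest in the shCon EV libraries at 13.4% to 15.6%, and Mfap5/Mfap2 is highest in the CrOE EV libraries at 600% to 740%.

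The gene of nearest pattern outside the 10 was found for each by the root-mean-square difference of centred log2 CPM over the 12 libraries, among 9762 genes, as a description. Fbn1 lay nearest to Col1a2 (0.090), a chain of type I collagen. Fbn2 lay nearest to Ltbp2 (0.28), a fibrillin-like microfibril protein at 411.7 CPM without EVs and 251.7, 136.5 and 29.3 after shCon, shCr and CrOE EVs. For Fbln5 it was Col1a1 (0.42), for Fbln2 Cxcl12 (0.16), for Lox Fzd2 (0.088) and for Loxl1 Pgs1 (0.063). The others were nearest to Rin2 (Mfap2, 0.13), Nfatc4 (Mfap5, 0.20), Jam2 (Eln, 0.35) and Sertad4 (Mfap4, 0.59), the last being the largest of the 10 distances. Among the 10 themselves, Fbn1 and Lox were the most alike pair (0.20) and Mfap2 and Mfap4 the least alike (1.68).

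Of 20 other listed genes of elastic fibre assembly, 17 were tested. After shCon EVs 3 were higher (Adamtsl2, Adamts6 and Ltbp3) and 10 lower, after shCr EVs 1 was higher (Fbln7) and 10 lower, and after CrOE EVs 1 was higher (Adamtsl2) and 16 lower. Over all genes tested 18.0%, 18.4% and 36.7% were higher and 20.2%, 18.8% and 37.0% lower in these 3 comparisons. The medians of the list were -0.71, -0.46 and -1.92. Efemp1, which encodes fibulin-3, was at 88.8 ± 3.55 CPM in untreated cells, 46.1 ± 0.271 after shCon EVs, 64.4 ± 4.198 with shCr EVs and 2.31 ± 0.351 after CrOE EVs (SD, n = 3), a log2 fold change of -5.25 in the last. Npnt, a ligand of integrin alpha 8, fell from 38.8 ± 5.81 to 19.1 ± 1.65, 24.4 ± 2.33 and 1.36 ± 0.452 CPM, and Adamtsl4, which binds fibrillin, from 24.2 ± 0.483 to 8.32 ± 0.567, 10.8 ± 1.97 and 0.884 ± 0.115. These 3 genes were chosen for the largest range between groups, so that their falls were calls is no independent result. While Fbln5 rose after shCon EVs, 3 fibulins of the assembly list fell, Fbln1 (-0.91), Efemp1 (-0.95) and Efemp2 (-0.63), and Fbln7 was no call.

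Between shCr and shCon EVs 3 of the 17 assembly genes were higher (Efemp1, Efemp2 and Fbln7) and 5 lower (Adamts6, Adamtsl2, Emilin1, Ltbp2 and Ltbp3), where 5.22% of all genes were higher and 3.51% lower, with a median of 0.13. Efemp1 was 0.48 higher on the log2 scale (SE 0.069, adjusted p = 0.000925). Ltbp2 was lower (log2 fold change -0.88, adjusted p = 0.000132), and Adamtsl2, a microfibril-binding protein, was at 0.0604 ± 0.0644 against 0.528 ± 0.113 CPM (SD, n = 3). With CrOE against shCon EVs 14 of 17 were lower and the other 3 were no calls. Against shCr EVs 16 were lower and 1, Adamtsl2, higher. Over all genes tested 36.1% were lower and 36.5% higher in the first of these comparisons, and 37.0% and 36.9% in the second. The other genes named from the assembly list were picked after their values were seen.

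Among other lysyl oxidases and their helpers 9 of 10 listed genes were tested. After shCon EVs 4 were lower (Atox1, Loxl3, Loxl4 and Tll1) and the other 5 were no calls, after shCr EVs the lower ones were again 4 (Atox1, Loxl3, Loxl4 and Tll1) with 1 higher (Slc31a1), and after CrOE EVs 8 were lower and 1 higher (Slc31a1). Over all genes 20.2%, 18.8% and 37.0% were lower and 18.0%, 18.4% and 36.7% higher. The medians were -0.17, -0.28 and -0.85. Loxl3 went from 82.5 ± 3.46 CPM in untreated cells to 58.5 ± 0.784, 56.3 ± 4.15 and 9.53 ± 0.956. Pcolce, which enhances procollagen processing, was at 988.8 ± 2.79, 940.1 ± 19.9, 998.1 ± 34.9 and 123 ± 4.84 CPM, a call only after CrOE EVs (-3.00, adjusted p = 9.91e-14). Loxl2 did likewise at a low level, with 3.06 ± 0.295, 2.73 ± 0.437, 3.77 ± 0.584 and 0.523 ± 0.0402 CPM. The exception to the fall with CrOE EVs was Slc31a1, the cellular copper importer, at 63.9 ± 3.38 CPM without EVs and 93.3 ± 2.58 after CrOE EVs (0.55, adjusted p = 9.22e-07). Loxl4 was higher with CrOE EVs than with shCon EVs (0.26) or shCr EVs (0.74), and with shCr against shCon EVs it was the single call of the 9 (-0.48), a share near the 8.73% of all genes called. Loxl3, Pcolce and Loxl2 were chosen for the largest range between groups, and Atox1, Loxl4, Tll1 and Slc31a1 after their values were seen.

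Of 12 listed enzymes that can degrade elastin, 11 were in the table and 7 were tested. After shCon EVs 4 were higher (Ctsk, Mmp12, Mmp14 and Mmp2) and the other 3 were no calls. After shCr EVs 5 were higher (Ctsb, Ctsk, Ctsl, Mmp14 and Mmp2) and 1 lower (Mmp9), and after CrOE EVs 1 was higher (Mmp12) and 5 lower (Ctsb, Ctsl, Mmp14, Mmp2 and Mmp9). The shares over all genes were 18.0%, 18.4% and 36.7% higher and 20.2%, 18.8% and 37.0% lower. Mmp2, a gelatinase that also cleaves elastin, was at 940.3 ± 28.8 CPM in untreated cells, 2248.3 ± 25.6 after shCon EVs, 1955.8 ± 75.5 with shCr EVs and 183 ± 9.67 after CrOE EVs (SD, n = 3). Mmp12, the macrophage elastase, was at 1.87 ± 0.380, 4.40 ± 0.336, 2.38 ± 0.497 and 14.5 ± 1.67 CPM, so that after CrOE EVs it rose (2.95, SE 0.17, adjusted p = 3.84e-09) where Mmp9 fell from 16.2 ± 2.02 to 1.97 ± 0.406 CPM. With shCr against shCon EVs Ctsb was higher and Mmp12 and Mmp2 were lower. Ctss, Elane and Ctsg, proteases typical of leukocytes, were too low to be tested. Mmp2, Mmp9 and Mmp12 were chosen for the largest range between groups, and the cathepsins and Mmp14 after their values were seen.

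Receptors for elastin and microfibrils were tested for 11 of 12 listed genes. After shCon EVs 7 were higher and 1 lower (Itga5), after shCr EVs 6 were higher and 2 lower (Itga5 and Itgav), and after CrOE EVs 1 was higher (Lgals3) and 9 lower. Beside this, 18.0%, 18.4% and 36.7% of all genes were higher and 20.2%, 18.8% and 37.0% lower. Itgb3, whose product pairs with alpha v integrin, went from 22.8 ± 0.724 CPM in untreated cells to 40.2 ± 1.04, 39.4 ± 3.52 and 4.203 ± 0.518. Itgb8 went from 2.35 ± 0.307 to 3.48 ± 0.181, 3.79 ± 0.556 and 0.345 ± 0.0814, and Itga8 from 1.501 ± 0.314 to 2.88 ± 0.205, 3.66 ± 0.281 and 0.835 ± 0.117. Itgb3, Itgb8 and Itga8 were chosen for the largest range between groups, so that they differed follows from the choice. With shCr against shCon EVs 2 of 11 were calls, where 8.73% of all genes were, Ctsa higher (0.24) and Itgb5 lower (-0.58). Itgb5 stood at 344.7 ± 3.62 CPM after shCon EVs and between 215.6 and 231.4 CPM on average in the other groups. Itga5, Itgav, Lgals3, Ctsa and Itgb5 were named after their values were seen.

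**Figure D4:**
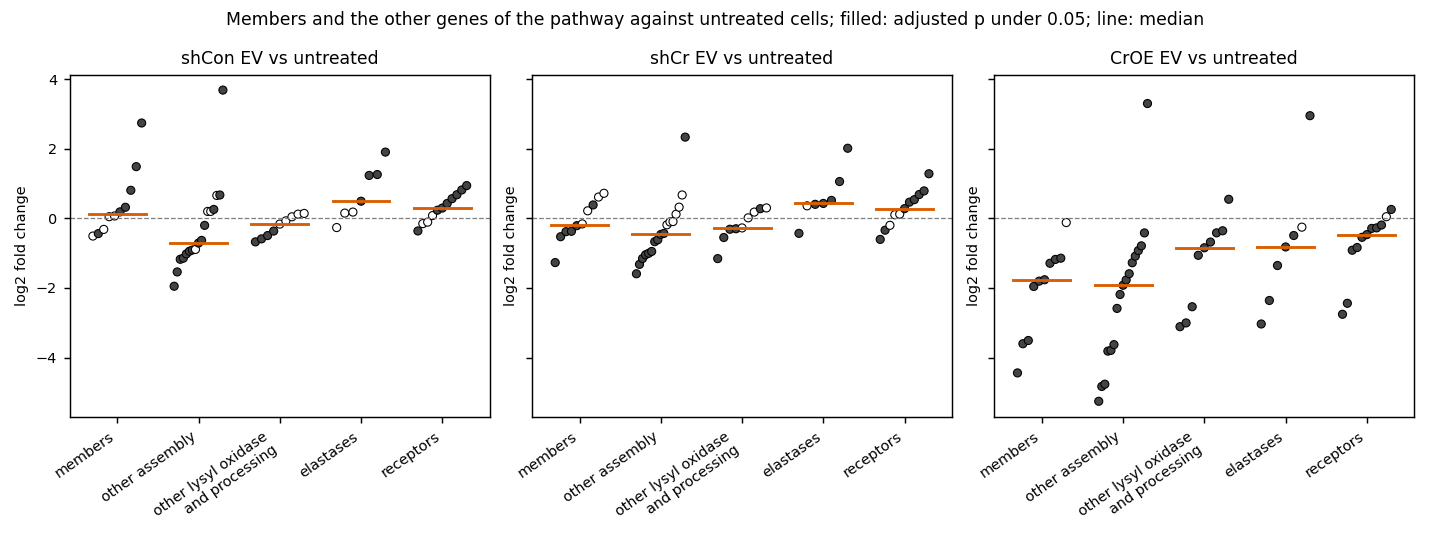
log2 fold changes against untreated cells for the 10 genes and for the 4 lists of other pathway genes (1 point per tested gene, filled where called, orange line at the list's median), for shCon, shCr and CrOE EVs. The assembly list has medians of -0.71, -0.46 and -1.92, while elastases have 0.49 and 0.43 after shCon and shCr EVs and -0.82 after CrOE EVs.

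Epithelial and endothelial markers were low, those of smooth muscle and leukocytes were higher, and the sums differed between groups. Of 8 epithelial markers 4 or 5 were above 3 counts, Epcam was at 0 in every library, and their summed level was 1.00 to 1.84 CPM outside the CrOE EV group and 2.91 to 3.62 within it. Between untreated and CrOE EV libraries mean Cldn4 went from 0 to 1.15 CPM and Krt18 from 0.346 to 0.849. Krt19 went the other way, from 0.9425 to 0.6205 CPM. Endothelial markers summed to 2.21 to 3.15 CPM in untreated libraries, 5.48 to 6.20 after shCon EVs, 4.23 to 5.58 with shCr EVs and 17.4 to 20.2 after CrOE EVs, mostly Vwf, with Emcn at or below 3 counts. Smooth muscle markers summed to 95.2 to 101 CPM without EVs and to 77.65 to 81.5 after shCon EVs, with 6 of 6 above 3 counts in each group. Their sums with shCr EVs, 56.1 to 79.55 CPM, and after CrOE EVs, 49.2 to 57.6 CPM, overlapped. Of these markers Smtn averaged 50.2 CPM without EVs and 49.9 after CrOE EVs, while Mylk averaged 35.1 and 1.73 CPM. Leukocyte markers summed to 129 to 141 CPM in untreated libraries, 123 to 134 after shCon EVs, 173 to 246 with shCr EVs and 32.6 to 38.3 after CrOE EVs, mostly Cd14 and Lyz2, with Adgre1 at or below 3 counts. The part of these shifts in the results for elastic fibre genes was not tested.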

How the data were processed

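RNA of 12 libraries of 3T3 cells, poly(A)-selected and directional per the labels' protocols, was analysed from 1 table. The authors deposited estimated counts per gene symbol, with no scaling between libraries; 39.8% of values were not whole. The submitters' processing notes name featureCounts and the build mm39; annotation and strand setting are not given in the sources used here. Columns were matched to samples by name, and 3 that carry just the name of the protein went to the CrOE samples by elimination. The 27 rows whose symbol had become a date held at most 0.259% of a library.

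Values were rounded. Genes passed filterByExpr, were scaled by TMM and were tested with edgeR 4.0.16 (R 4.3.3; glmQLFit, glmQLFTest) on all 12 libraries with a mean per group and 8 residual degrees of freedom. The 6 pairs of groups and the 4 groups together were compared, with Benjamini-Hochberg adjustment over all genes. Alternatives were DESeq2 1.42.0, other size factors and filters, a replicate block, models of 2 groups and left-out libraries. The test was tested on simulated data in which few genes changed, in the shCon EV group only. That setting does not cover a change as wide as that after CrOE EVs.

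The members and lists were chosen with earlier results of these data known. All 10 members are named, with the 3 genes of largest range per list and the nearest gene of each member. Exon lengths and overlaps came from GENCODE M21 (GRCm38), promoters from RefSeq (GRCm38.p6), by symbol, without coordinates of mm39. Promoters of 4 members were matched and examined, and those of the other members are not reported here.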

Additional observations from a re-analysis of the deposited data

How the results depend on the processing

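The counts of called members stayed within 1.5 times their values in every alternative run and in each of the 6 comparisons. A filter of at least 10 counts in every library left 7 members tested. Of 342 values of single members under alternatives that kept all libraries, 11 changed side of the threshold, and of 360 values with 1 library left out, 25 changed side or direction. The direction changes were all of members that were no calls: without 1 library, Fbn1 ranged from -0.024 to 0.15 and Mfap2 from -0.018 to 0.12 after shCon EVs, and Mfap4 from -0.26 to 0.17 after CrOE EVs against untreated cells (log2 fold changes). Without CrOE EV replicate 1 the fall of Eln grew from -1.76 to -2.49 against untreated cells, from -1.45 to -2.17 against shCon EVs and from -2.48 to -3.21 against shCr EVs.

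The share of all genes called with shCr against shCon EVs, against which 7 of 10 members are read, fell from 8.73% (1247 genes) to 4.66% (641) in a model of these 2 groups and to 4.37% (632), 4.72% (688) and 4.58% (666) without shCon EV replicates 2, 1 and 3. In these runs 6 members were called in the model of 2 groups, and 6, 6 and 7 without those replicates in turn. Without shCr EV replicates 1, 2 and 3 the share was 9.58%, 6.62% and 8.44%, with 6 members called each time. The share was 11.7% (1579 genes) with DESeq2 and 4.33% (1000) with no low-count filter, with 7 members called in each. Dropping that filter raised the genes tested from 14279 to 23092. Without that filter the shares of the other comparisons were 21.9%, 21.1% and 46.8% against untreated cells (shCon, shCr and CrOE EVs in turn), 45.6% for CrOE against shCon EVs and 46.9% for CrOE against shCr EVs, with 5, 5, 9, 10 and 10 members called. With a replicate block the members called with shCr against shCon EVs were 6 instead of 7, with Fbn2 lost (adjusted p = 0.059 by edgeR), and after shCr EVs against untreated cells Mfap2 was lost (0.0504) and Fbln5 gained (0.0471). Same-numbered libraries did not pair: their deviations from group means correlated at -0.20 to 0.32, and 4 of 12 libraries correlated best with their own number. Depth limits Eln, Fbn2, Mfap2 and Mfap4 in the CrOE EV libraries, which held 2 to 30 counts of each.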
